A study of Mus musculus with 12 samples.

Results

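The TNF receptor superfamily was followed here through 7 of its genes: Tnfrsf4 (OX40), Tnfrsf9 (4-1BB), Tnfrsf18 (GITR), Cd27, Tnfrsf1b (TNFR2), Tnfrsf1a (TNFR1) and Fas. They were taken by gene symbol, and all 7 were present among the 11022 genes of the deposited table. Messenger RNA had been sequenced from 12 cultures of mouse cytotoxic T lymphocytes (CTL), with 3 cultures in each of 4 groups. All cultures came from LCMV-P14 TCR transgenic mice, whose CD8 T cells carry a single receptor for the gp33-41 peptide of lymphocytic choriomeningitis virus, and all were kept in interleukin 2 (IL-2) at 20 ng/mL. The unstimulated group received no peptide. The TCR group received gp33-41 at 100 ng/mL for 4 h. The TCR + PI3Kdi group received the same peptide with IC87114 at 10 µM, an inhibitor of the PI3K catalytic subunit p110δ. The TCR + MEKi group received peptide with PD184252 at 2 µM, an inhibitor of MEK, the kinase upstream of ERK. The cells were expanded in vitro from activated T cells, so the unstimulated group held rested effector cells and not naïve cells. The P14 mice were females aged 9 to 13 weeks, which the methods state for the unstimulated, TCR and PI3Kdi cultures without naming the MEKi ones. There was no group with an inhibitor but without peptide.

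Most receptors of this superfamily are single-pass membrane proteins with cysteine-rich domains that bind trimeric ligands. OX40, 4-1BB, GITR, CD27 and TNFR2 lack a death domain and recruit TRAF adaptors, through which they activate NF-κB and act as co-stimulatory receptors on T cells. TNFR1 and Fas carry a cytoplasmic death domain and can assemble complexes that activate caspases. On T cells, OX40 and 4-1BB are known as receptors that appear after antigen recognition, CD27 is already present on naïve cells, and Fas takes part in the death of activated cells.

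Depth was estimated from the spacing of low values, since read totals were not used here, and lay between 7845000 and 13255000 per sample. The authors had scaled the libraries (TMM) before computing FPKM. These estimates are therefore scaled library sizes and can differ from the number of reads counted. All 7 CD8 T cell markers searched (Cd8a, Cd8b1, Cd3d, Cd3e, Cd3g, Gzmb and Prf1) were in the table, with group means from 111 FPKM for Cd3e to 13005 FPKM for Gzmb (FPKM, fragments per kilobase of exon, scaled to library size). None of the 5 B cell, 8 myeloid and dendritic or 3 erythroid markers was in the table under the symbol searched. Other symbols of the markers were not searched, and the authors had removed genes with low counts. Absence of a marker from the table therefore does not exclude low levels in the cultures. Of the 2 CD4 T cell markers Cd4 was present and Foxp3 was not, and of the 2 NK cell markers Klrb1c was present and Ncr1 was not. Cd4 lay between 0.44 and 0.99 FPKM in unstimulated samples, 2.54 and 2.87 in the TCR group, 1.96 and 3.65 with PI3Kdi and 0.28 and 0.66 with MEKi. Klrb1c lay between 4.58 and 6.23 FPKM in unstimulated samples and between 1.31 and 2.43 in the 9 stimulated ones. Cd4 was called higher with TCR than in unstimulated samples and lower with MEKi than with TCR. Klrb1c was called lower than in unstimulated samples with TCR (log2 fold change -1.53), with PI3Kdi (-1.21) and with MEKi (-1.7). The part of either marker in the results for the receptors was not tested. The samples were bulk cultures, in which a change in the fraction of cells that express a gene and a change in the RNA per cell cannot be told apart.

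In resting CTL the 7 receptor mRNAs covered a wide range of levels. Tnfrsf9 stood at 279 ± 4.37 FPKM (mean ± SD, n = 3) and made up 69.7% of the summed FPKM of the 7 genes. Tnfrsf18 followed at 57.0 ± 4.93 FPKM, ahead of Tnfrsf1b at 24.0 ± 1.72, Tnfrsf1a at 17.1 ± 1.81 and Cd27 at 14.5 ± 1.53. Fas at 4.49 ± 0.417 FPKM and Tnfrsf4 at 4.11 ± 1.53 came last and their sample ranges overlapped, whereas those of Tnfrsf1a and Cd27 were separated by a narrow margin. Expressed as reads, Tnfrsf9 rested on about 6470 to 18278 reads per sample, while Fas rested on 77 to 212 and Tnfrsf4 on 33 to 1824, so the low values of the latter genes carry the larger counting error.

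Peptide raised most of these receptors. At the calling rule used throughout, a Benjamini-Hochberg adjusted p under 0.05 from limma together with more than a 2-fold change on the log2(FPKM + 0.1) scale, 5 of the 7 genes were called higher in the TCR group than in unstimulated CTL and 0 were called lower. Of all genes tested, 8.87% were called higher in that comparison. By the adjusted p alone, 6 of the 7 were higher, against 33.6% of all genes. The median log2 fold change of the 7 receptors was 1.35, and that of all genes was -0.01. Rescaling every sample to the same FPKM sum (the TPM scale) moved the median of all genes in this comparison from -0.01 to -0.41 and the share of called genes that were higher from 44.4% to 22.1%, and on it 3 of the 7 receptors (Tnfrsf4, Cd27 and Tnfrsf18) were called higher. Of all 11022 genes, 647 were called higher on that scale, beside 978 with FPKM as deposited. The summed FPKM of the 7 genes went from 399.8 ± 13.8 in unstimulated samples to 1243 ± 91.5 in the TCR group.

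**Figure D1:**
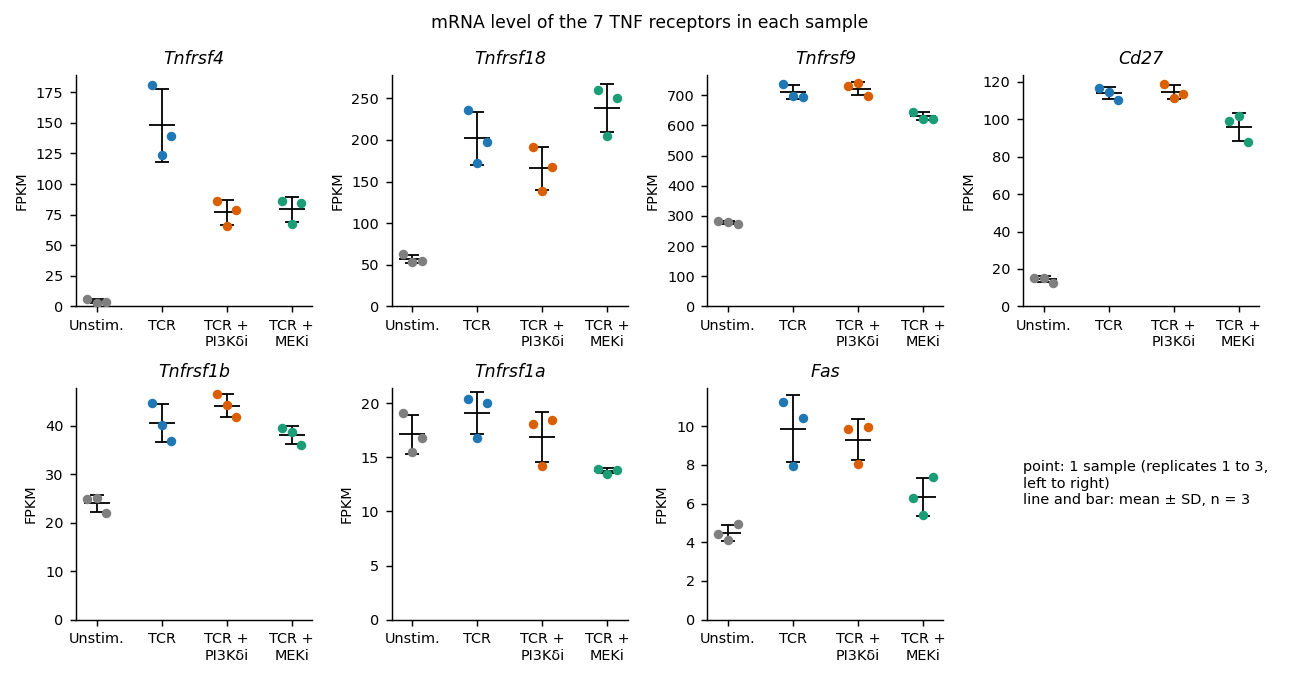
FPKM (vertical axes, each starting at 0) of the 7 receptor genes in the 12 samples, with 1 point per sample and the mean ± SD (n = 3) of each group in black. Tnfrsf4, Tnfrsf18, Tnfrsf9, Cd27, Tnfrsf1b and Fas lay higher in every TCR sample than in every unstimulated sample, and Tnfrsf1a did not.

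Tnfrsf4 encodes OX40, the co-stimulatory receptor for OX40 ligand. Its FPKM was 5.86, 3.07 and 3.39 in the unstimulated samples, 180.58, 123.42 and 139.58 with TCR, 86.05, 65.55 and 79.03 with PI3Kdi, and 86.09, 67.68 and 84.39 with MEKi. The unstimulated and TCR samples were far apart, and all 6 inhibitor samples lay between them with no overlap on either side. The TCR group was 36.2-fold above unstimulated (log2 fold change 5.18, SE 0.20, adjusted p = 7.19e-12), the largest change among the 7 receptors. Against TCR alone, PI3Kdi changed it by -0.93 on the log2 scale (SE 0.20, 95% interval -1.35 to -0.51, adjusted p = 0.003) and MEKi by -0.89 (SE 0.20, 95% interval -1.31 to -0.47, adjusted p = 0.00279). Both passed the adjusted p and stayed within 2-fold, and the point estimates crossed the 2-fold line when TCR replicate 2 was left out (-1.05 with PI3Kdi and -1.01 with MEKi) and, for PI3Kdi, when PI3Kdi replicate 1 was left out (-1.02). The level left was 52.0% of the TCR mean with PI3Kdi and 53.7% with MEKi. The inhibitor groups differed from each other by 0.05 (95% interval -0.37 to 0.47, adjusted p = 0.88), so a difference beyond that interval was not seen.

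Tnfrsf18 encodes GITR and lies 9.55 kb downstream of Tnfrsf4 on chromosome 4 (GRCm38, Tnfrsf4 at chr4:156013843-156016612 and Tnfrsf18 at chr4:156026164-156028895, both on the plus strand, GENCODE M21). Its FPKM was 62.69, 53.81 and 54.52 in unstimulated samples, 235.92, 171.78 and 197.77 with TCR, 190.93, 138.75 and 167.65 with PI3Kdi, and 259.46, 204.77 and 250.83 with MEKi. Every stimulated sample lay above every unstimulated one, while the TCR range overlapped that of each inhibitor group. TCR raised it 3.51-fold (log2 fold change 1.81, SE 0.13, adjusted p = 7.42e-09). Against TCR, the difference was -0.28 with PI3Kdi (95% interval -0.55 to -0.01, adjusted p = 0.115) and 0.24 with MEKi (95% interval -0.03 to 0.51, adjusted p = 0.145). Replicate 2 was the lowest sample in each of the 4 groups, and with the replicate number as a block the same differences had adjusted p = 0.00372 with PI3Kdi and 0.00636 with MEKi. Leaving out TCR replicate 2 or PI3Kdi replicate 1 brought the PI3Kdi value to an adjusted p of 0.0414 and 0.0397, and leaving out TCR replicate 1 brought the MEKi value to 0.0427. After rescaling to TPM the MEKi difference was 0.51 (adjusted p = 0.00144), and quantile normalisation gave 0.42 (adjusted p = 0.0152). The PI3Kdi difference shrank to -0.10 (adjusted p = 0.486) after rescaling to TPM and to -0.13 (adjusted p = 0.502) after quantile normalisation. The MEKi group exceeded the PI3Kdi group by 0.53 (SE 0.13, 95% interval 0.26 to 0.80, adjusted p = 0.00571). Thus the neighbouring genes Tnfrsf4 and Tnfrsf18 had MEKi values of opposite sign, -0.89 and 0.24. In the annotation 414 exon bases of Tnfrsf18 are overlapped by Gm16008 on the opposite strand, and whether counting used the strand is not given in the sources used here.

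Tnfrsf9 (chr4:150914562-150946102, plus strand) encodes 4-1BB, a co-stimulatory receptor used widely as a mark of recent activation, and was the most abundant of the 7 in every sample. Its FPKM was 283.08, 278.37 and 274.35 in unstimulated samples, 736.66, 697.91 and 694.79 with TCR, 730.67, 740.18 and 696.83 with PI3Kdi, and 645.81, 622.03 and 622.62 with MEKi. The TCR and PI3Kdi ranges overlapped, and the MEKi samples lay below both by a narrow margin. TCR raised it 2.55-fold (log2 fold change 1.35, SE 0.05, adjusted p = 5.57e-12), although quantile normalisation gave 0.93 and rescaling to TPM 0.94, both under the 2-fold line. The difference with PI3Kdi was 0.03 (95% interval -0.08 to 0.13, adjusted p = 0.745), but it passed as higher after rescaling to TPM (0.21, adjusted p = 0.00399) and also under quantile normalisation (0.22, adjusted p = 0.00531). With MEKi it was -0.17 (SE 0.05, adjusted p = 0.015), which turned to 0.09 after rescaling to TPM and to 0.15 after quantile normalisation (adjusted p = 0.0298), so its direction depended on the scaling. Its share of the summed receptor FPKM was 57.2% with TCR, 62.9% with PI3Kdi and 57.2% with MEKi.

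The second of the RefSeq promoter windows of Tnfrsf9 is shown because it alone among the 8 windows of the 7 genes held the κB consensus (the binding motif of NF-κB). Each window runs from 250 bases before to 50 bases after an annotated RefSeq start (GRCm38.p6). Capitals mark matches to κB, 2 overlapping positions in 1 run, and to the AP-1 site TGANTCA. The Fas window held the other AP-1 match, and the Tnfrsf4 window is shown for comparison as that of the gene with the largest rise, with neither motif and so no capitals. All 7 genes had a window in the RefSeq table, Tnfrsf9 having 2. The RefSeq and GENCODE starts differ for several of the genes, Tnfrsf4, Tnfrsf18 and Tnfrsf9 among them. Both Tnfrsf9 windows lie inside the GENCODE gene, which starts further upstream at chr4:150914562. The Tnfrsf9 window is chr4:150927749-150928048 on the plus strand, that of Fas chr19:34290409-34290708 on the plus strand, and that of Tnfrsf4 chr4:156013445-156013744 on the plus strand.
Tnfrsf9: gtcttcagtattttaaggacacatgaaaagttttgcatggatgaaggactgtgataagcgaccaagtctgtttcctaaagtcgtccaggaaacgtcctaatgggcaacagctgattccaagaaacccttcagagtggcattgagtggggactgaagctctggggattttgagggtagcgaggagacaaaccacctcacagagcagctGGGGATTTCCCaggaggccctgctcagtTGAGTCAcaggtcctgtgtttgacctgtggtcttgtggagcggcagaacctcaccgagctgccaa
Fas: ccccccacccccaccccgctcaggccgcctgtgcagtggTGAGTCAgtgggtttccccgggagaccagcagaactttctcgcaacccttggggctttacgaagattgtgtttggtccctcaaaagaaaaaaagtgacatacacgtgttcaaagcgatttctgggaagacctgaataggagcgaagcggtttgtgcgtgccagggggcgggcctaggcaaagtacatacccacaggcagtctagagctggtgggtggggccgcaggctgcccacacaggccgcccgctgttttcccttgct
Tnfrsf4: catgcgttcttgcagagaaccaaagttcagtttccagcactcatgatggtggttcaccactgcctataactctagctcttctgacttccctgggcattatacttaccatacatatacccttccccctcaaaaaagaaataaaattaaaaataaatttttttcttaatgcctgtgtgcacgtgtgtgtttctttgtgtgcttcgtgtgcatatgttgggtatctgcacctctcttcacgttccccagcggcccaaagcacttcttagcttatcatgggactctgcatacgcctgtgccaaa

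With both strands searched, κB matched in 8.46% and TGANTCA in 7.81% of the 32851 promoter windows of the RefSeq table. The NFAT core GGAAA, present in 61.3% of all windows, matched 1 time in the Tnfrsf4 and Cd27 windows, 2 times in those of Tnfrsf18, Fas and the first of Tnfrsf9, 3 times in the second of Tnfrsf9 (where 1 match lies inside the κB run) and 0 times in those of Tnfrsf1b and Tnfrsf1a. The FOXO core GTAAACA (3.65% of all windows) and the EGR core GCGNGGGCG (5.55%) matched in none of the 8. In the Tnfrsf9 window the κB run lay 43 to 33 bases before the start and the AP-1 match 15 to 9 bases before it. These matches describe letters in short windows and were not tested against expression.

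Cd27 (chr6:125232622-125237010, minus strand) encodes the receptor for CD70. The annotated Mir8113 lies inside it, and 1.19% of the 100-base stretches of its transcripts are shared with that gene. Its FPKM was 15.31, 15.40 and 12.71 in unstimulated samples, 116.80, 114.74 and 110.25 with TCR, 118.57, 111.40 and 113.20 with PI3Kdi, and 98.83, 101.53 and 87.60 with MEKi. The stimulated and unstimulated samples did not overlap, the PI3Kdi samples fell on the TCR samples, and the MEKi samples lay below both. TCR raised it 7.85-fold (log2 fold change 2.97, SE 0.07, adjusted p = 6.2e-14), the second largest change of the 7. The difference with PI3Kdi was 0.01 (95% interval -0.15 to 0.16, adjusted p = 0.963) with FPKM as deposited. Rescaling to TPM gave 0.19 (adjusted p = 0.0774), above that interval, while quantile normalisation gave 0.15 (adjusted p = 0.144). The interval therefore holds for the deposited scale only and does not bound the PI3Kdi effect under other scalings. With MEKi the difference was -0.25 (SE 0.07, 95% interval -0.41 to -0.09, adjusted p = 0.0168), and after rescaling to TPM it was 0.01.

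Tnfrsf1b (chr4:145213463-145246870, minus strand) encodes TNFR2, the TNF receptor without a death domain. Its FPKM was 24.81, 25.16 and 22.03 in unstimulated samples, 44.77, 40.05 and 36.82 with TCR, 46.54, 44.24 and 41.71 with PI3Kdi, and 39.52, 38.63 and 36.12 with MEKi. Each stimulated sample exceeded each unstimulated one, and the 3 stimulated groups overlapped except PI3Kdi with MEKi. The TCR increase was 1.68-fold (log2 fold change 0.75, SE 0.08, adjusted p = 5.1e-07), under the 2-fold line. The differences from TCR were 0.13 with PI3Kdi (95% interval -0.04 to 0.29, adjusted p = 0.247) and -0.09 with MEKi (95% interval -0.25 to 0.08, adjusted p = 0.404), and the latter was 0.17 after rescaling to TPM. On that scale the PI3Kdi difference was 0.31 and passed (adjusted p = 0.0058). Its neighbour on chromosome 4, Tnfrsf8 (CD30), lies 20.3 kb away on the same strand and went the other way, from 58.6 ± 3.26 FPKM in unstimulated samples to 21.2 ± 2.06 with TCR (log2 fold change -1.46, adjusted p = 9.99e-10).

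Tnfrsf1a (chr6:125349362-125362484, plus strand) encodes TNFR1, the death domain receptor for TNF. Its FPKM was 19.09, 15.53 and 16.74 in unstimulated samples, 20.36, 16.83 and 20.06 with TCR, 18.05, 14.24 and 18.41 with PI3Kdi, and 13.89, 13.48 and 13.86 with MEKi. The unstimulated, TCR and PI3Kdi ranges overlapped, and the 3 MEKi samples lay below all others. TCR changed it by 0.16 (95% interval -0.07 to 0.38, adjusted p = 0.2), the smallest change of the 7 receptors, and the sign turned after rescaling to TPM (-0.25, adjusted p = 0.0324). With PI3Kdi the difference from TCR was -0.18 (95% interval -0.40 to 0.05, adjusted p = 0.232). With MEKi it was -0.47 (SE 0.10, adjusted p = 0.00312), at 72.0% of the TCR mean, and after rescaling to TPM it was -0.21 with an adjusted p of 0.0972. MEKi also left it below the unstimulated group, by -0.31 (SE 0.10, adjusted p = 0.0195), which rose to 0.0979 without unstimulated replicate 1 and to 0.0534 without MEKi replicate 2.

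Fas (chr19:34290666-34327772, plus strand) encodes the receptor for Fas ligand. Its FPKM was 4.45, 4.10 and 4.93 in unstimulated samples, 11.27, 7.94 and 10.42 with TCR, 9.83, 8.07 and 9.98 with PI3Kdi, and 6.27, 5.40 and 7.35 with MEKi. The TCR and PI3Kdi samples overlapped, and the MEKi samples lay between the unstimulated and the TCR samples without overlap. TCR raised it 2.15-fold (log2 fold change 1.11, SE 0.14, adjusted p = 5.84e-06), a value that a pseudocount of 1 (0.98) or rescaling to TPM (0.70) brought under the 2-fold line. With PI3Kdi the difference from TCR was -0.08 (95% interval -0.38 to 0.22, adjusted p = 0.726), and 0.10 after rescaling to TPM. With MEKi it was -0.63 (SE 0.14, 95% interval -0.93 to -0.32, adjusted p = 0.00313), and -0.37 after rescaling to TPM. Of the rise in mean FPKM with TCR, 34.3% remained with MEKi and 89.2% with PI3Kdi. The MEKi group was lower than the PI3Kdi group by -0.55 (SE 0.14, adjusted p = 0.00891).

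**Figure D2:**
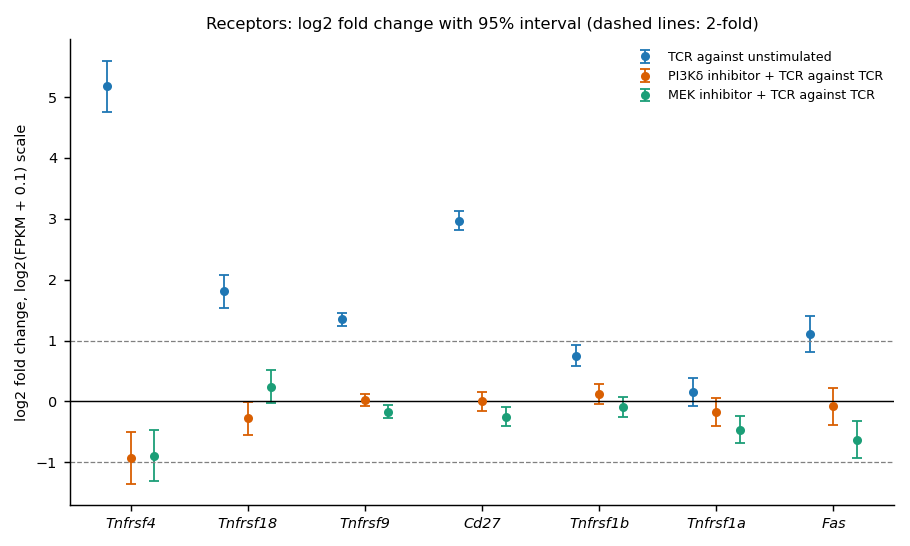
Log2 fold change (vertical axis, log2(FPKM + 0.1) scale) of each receptor with its 95% interval, for TCR against unstimulated and for each inhibitor group against TCR, with dashed lines at 2-fold. Tnfrsf4 reached 5.18 with TCR and had the lowest PI3Kdi value (-0.93).

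The inhibitor effects were then counted across the 7 genes. In the PI3Kdi group against TCR, 0 of the 7 were called, where 1.88% of all genes were called in either direction. Of those genes 26.6% were higher, and 52.7% after rescaling to TPM. By adjusted p alone 1 (Tnfrsf4) was lower, against 12.8% of all genes, and 0 were higher, against 12.7%. The count depended on the fit. Tnfrsf9 and Tnfrsf1b passed as higher on the TPM scale and Tnfrsf9 after quantile normalisation, and with the replicate number as a block Tnfrsf18 joined Tnfrsf4 as lower (-0.28, adjusted p = 0.00372). In the MEKi group against TCR, 0 of the 7 were called, where 3.49% of all genes were called, 28.1% of them higher (61.5% after rescaling to TPM). By adjusted p alone 5 of the 7 were lower (Tnfrsf4, Fas, Tnfrsf1a, Cd27 and Tnfrsf9) and 0 were higher, against 18.2% of all genes lower and 18.9% higher. With the replicate number as a block 5 were lower and 1 was higher, Tnfrsf18 (0.24, adjusted p = 0.00636). On the TPM scale 2 were lower (Tnfrsf4 and Fas) and 1 higher (Tnfrsf18), and after quantile normalisation 3 were lower (Tnfrsf4, Fas and Tnfrsf1a) and 2 higher (Tnfrsf18 and Tnfrsf9). Shares of all genes passing by adjusted p alone are not given here for the block, TPM and quantile fits. Of the 5 lower with FPKM as deposited, Tnfrsf9 and Cd27 had a positive value after rescaling to TPM, a scale on which the median of all genes moved from 0.01 to 0.26. The adjusted p of Tnfrsf9 was 0.0532, 0.0516 and 0.0565 without TCR replicate 1, MEKi replicate 2 or MEKi replicate 3, and that of Cd27 was 0.0517 and 0.0907 without TCR replicate 1 or MEKi replicate 3. At an unadjusted p under 0.05, limma picked 2 of the 7 with PI3Kdi (Tnfrsf4 and Tnfrsf18), where it picked 37.7% of all genes in either direction, and 5 with MEKi, where it picked 46.4%. The summed FPKM of the 7 receptors was 1149.9 ± 43.9 with PI3Kdi and 1102 ± 48.2 with MEKi, 2 ranges that overlap.

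**Figure D3:**
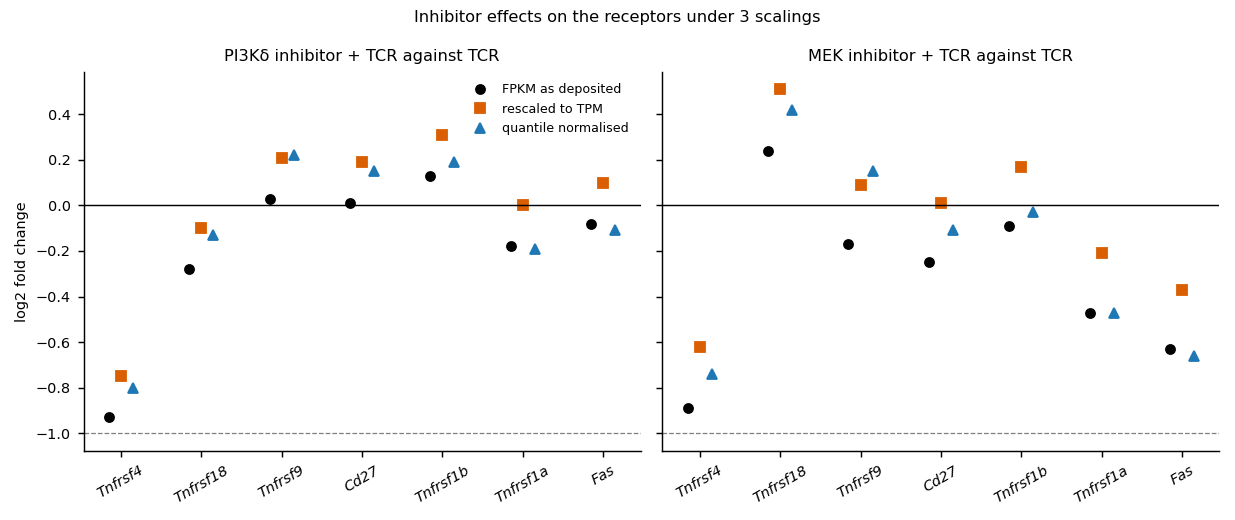
Log2 fold change (vertical axis) of the 7 receptors for PI3Kdi against TCR (left) and MEKi against TCR (right), with FPKM as deposited, after rescaling to TPM and after quantile normalisation. Tnfrsf4 stayed between -0.93 and -0.62 in all 6 settings, Fas stayed between -0.66 and -0.37 with MEKi, and Tnfrsf9 crossed 0 with MEKi.

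Set directly against each other, the inhibitor groups showed 0 of the 7 receptors called, where 3.09% of all genes were called in either direction. By adjusted p alone 4 of the 7 differed, 1 higher with MEKi (Tnfrsf18) and 3 lower (Fas, Cd27 and Tnfrsf9), against 28.9% of all genes. The values were 0.53, -0.55, -0.26 and -0.20. Those of Cd27 and Tnfrsf9 no longer passed on the TPM scale (adjusted p = 0.119 and 0.0823), that of Tnfrsf9 also not after quantile normalisation (0.292), and that of Cd27 also not without PI3Kdi replicate 1 (0.0566) or MEKi replicate 3 (0.0976). At an unadjusted p under 0.05 limma picked 6 of the 7, Tnfrsf4 being the exception, and 40.5% of all genes. Tnfrsf1a at -0.29 (adjusted p = 0.053) and Tnfrsf1b at -0.21 (adjusted p = 0.05, just above the threshold) had adjusted p = 0.0103 and 0.00816 with the replicate number as a block. In that block fit 5 of the 7 passed as lower with MEKi and 1 (Tnfrsf18) as higher. The share of all genes passing in it is not given here.

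Against unstimulated CTL, 5 of the 7 were called higher in the PI3Kdi group, where 7.16% of all genes were called higher, and 4 of the 7 in the MEKi group, where 6.95% were. The receptor called with PI3Kdi and not with MEKi was Fas, at 1.03 and 0.48. The 2 comparisons and the TCR comparison share the unstimulated samples. Tnfrsf4 was 18.9-fold above unstimulated with PI3Kdi and 19.6-fold with MEKi, Cd27 7.88-fold and 6.61-fold, Tnfrsf18 2.89-fold and 4.16-fold, and Tnfrsf9 2.59-fold and 2.26-fold.

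**Figure D4:**
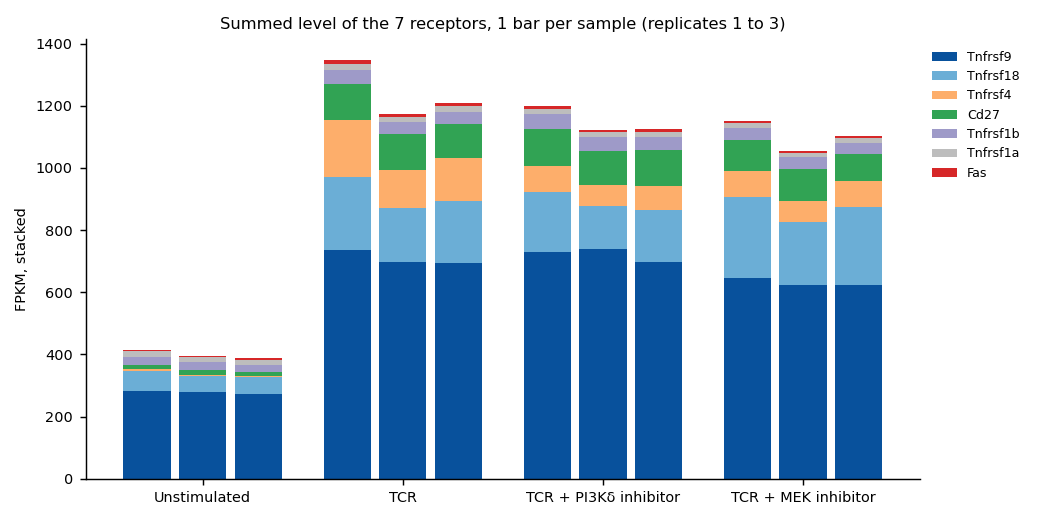
Stacked FPKM (vertical axis, starting at 0) of the 7 receptors, with 1 bar per sample and replicates 1 to 3 from left to right in each group. Sums ran from 388.7 to 415.3 in unstimulated samples and from 1053.5 to 1346.4 in the 9 stimulated samples, with Tnfrsf9 the largest part of each bar.

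The genes of the ligands that bind these receptors were examined next. Of the 7 ligand genes listed, 6 were in the table (Tnfsf18, the ligand of GITR, was not analysed here), and 5 were called higher with TCR and 0 lower, beside 8.87% and 11.1% of all genes. With PI3Kdi against TCR 4 of the 6 were called lower, and with MEKi against TCR also 4, in both cases Cd70, Tnf, Tnfsf9 and Lta. Of all genes, 1.88% and 3.49% were called there in either direction. The median log2 fold change of the 6 ligands was -1.65 with PI3Kdi and -1.68 with MEKi, beside receptor medians of -0.08 and -0.25 and all-gene medians of 0.02 and 0.01. The comparisons with PI3Kdi and MEKi share the TCR samples.

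Cd70, the CD27 ligand, was at or under 3 reads in all 3 unstimulated samples (0 to 0.09 FPKM) and reached 39.4 ± 1.76 FPKM with TCR, at least 116-fold higher against a floor of 3 reads per library. It was 2.82 ± 0.438 FPKM with PI3Kdi and 9.98 ± 1.12 with MEKi, changes from TCR of -3.77 (SE 0.20, adjusted p = 3.4e-08) and -1.97 (SE 0.20, adjusted p = 4.39e-06). Its receptor Cd27 had changed by 0.01 and -0.25 in those comparisons. Tnf, bound by TNFR1 and TNFR2, went from 63.0 ± 7.02 FPKM in unstimulated samples to 3252 ± 266 with TCR, and was 539 ± 96.4 with PI3Kdi (-2.61, adjusted p = 4.92e-07) and 409 ± 147 with MEKi (-3.05, adjusted p = 3.33e-08). Lta, encoding lymphotoxin α, which also binds both TNF receptors, went from 130.5 ± 10.8 to 395 ± 33.1 FPKM with TCR and was 114 ± 11.9 with PI3Kdi (-1.79, adjusted p = 2.37e-07) and 101 ± 20.9 with MEKi (-1.98, adjusted p = 2.3e-08). Tnfsf9, the 4-1BB ligand, went from 3.33 ± 0.02 to 64.6 ± 3.08 FPKM with TCR and was 22.8 ± 2.33 with PI3Kdi (-1.50, adjusted p = 4.39e-07) and 24.8 ± 4.70 with MEKi (-1.39, adjusted p = 2.62e-07), while its receptor Tnfrsf9 had changed by 0.03 and -0.17.

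Neither of the other 2 ligands was called with an inhibitor. Tnfsf4, the OX40 ligand, went from 5.12 ± 0.765 to 40.8 ± 9.13 FPKM with TCR (log2 fold change 2.96, adjusted p = 1.29e-10). It was 35.8 ± 3.48 FPKM with PI3Kdi (-0.17, 95% interval -0.48 to 0.14, adjusted p = 0.431) and 52.8 ± 4.14 with MEKi (0.39, 95% interval 0.08 to 0.70, adjusted p = 0.0453). Its receptor Tnfrsf4 had changed by -0.93 and -0.89 in those comparisons, so receptor and ligand had values of opposite sign with MEKi. Fasl, encoding Fas ligand, was already 33.0 ± 1.85 FPKM in unstimulated samples and was 39.6 ± 1.27 with TCR, a log2 fold change of 0.26 (adjusted p = 0.000482) that turned to -0.15 after rescaling to TPM.

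**Figure D5:**
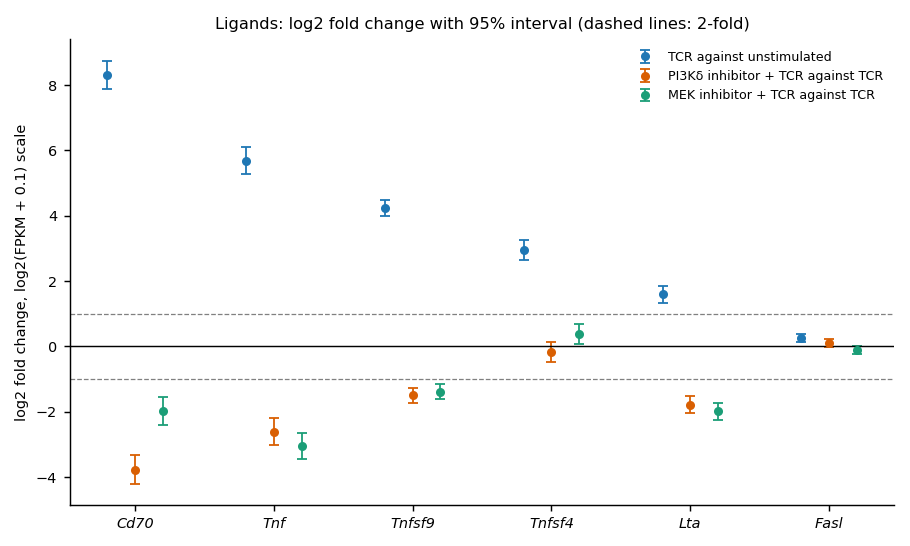
Log2 fold change (vertical axis, log2(FPKM + 0.1) scale) of the 6 ligand genes with 95% intervals, for the same comparisons as for the receptors, with dashed lines at 2-fold. Cd70, Tnf, Tnfsf9 and Lta lay below the lower dashed line with both inhibitors, and Tnfsf4 and Fasl lay between -0.17 and 0.39. The TCR value of Cd70 (8.31) depends on the pseudocount, since its unstimulated samples were at or under 3 reads.

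Other members of the superfamily responded in mixed directions. Of 21 further receptor genes listed, 13 were in the table, and with TCR 1 was called higher and 3 lower (8.87% and 11.1% of all genes), with a median log2 fold change of -0.49. Besides Tnfrsf8, those called lower were Tnfrsf26 (-1.44, adjusted p = 4.76e-09) and Tnfrsf22 (-1.30, adjusted p = 0.000321), which lie 6.08 kb apart on chromosome 7. Tnfrsf22 is known as a decoy receptor for TRAIL in the mouse. Tnfrsf25 (DR3), the one called higher, rested on 1 to 4 approximate reads in unstimulated samples and 12 to 26 with TCR (2.06, adjusted p = 4.12e-05). With PI3Kdi against TCR, Tnfrsf25 (-1.49, adjusted p = 0.00337) and Tnfrsf12a (-1.31, adjusted p = 0.00753), the TWEAK receptor (6 to 26 approximate reads per sample with PI3Kdi), were called lower and Tnfrsf26 higher (1.20, adjusted p = 1.09e-06). With MEKi against TCR, Tnfrsf12a alone was called (-1.11, adjusted p = 0.0137). Of all genes, 1.88% were called with PI3Kdi and 3.49% with MEKi, in either direction. Tnfrsf26 was 9.04 ± 0.30 FPKM in unstimulated samples, 3.28 ± 0.295 with TCR, 7.67 ± 0.0173 with PI3Kdi and 3.12 ± 0.289 with MEKi, so PI3Kdi and MEKi differed by -1.27 (adjusted p = 2.47e-07).

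Genes that carry the signal of these receptors were also examined. Of 18 adaptor and death signalling genes, all in the table, 4 were called higher with TCR and 2 lower, beside 8.87% and 11.1% of all genes. The TRAF adaptors Traf5 (3.25, adjusted p = 2.36e-11), Traf4 (1.55, adjusted p = 1.09e-08) and Traf1 (1.41, adjusted p = 1.18e-11) were higher, as was Cflar (1.58, adjusted p = 4.9e-11), the inhibitor of caspase-8. Mlkl (-1.13, adjusted p = 8.6e-10) and Ripk3 (-1.04, adjusted p = 6.47e-07), both components of necroptosis, were lower. With PI3Kdi against TCR 0 of the 18 were called, where 1.88% of all genes were (7 at an unadjusted p under 0.05 in limma, beside 37.7% of all genes). With MEKi against TCR 1 of the 18 was called, where 3.49% of all genes were. That gene was Traf5 (-1.44, adjusted p = 1.94e-06), at 6.04 ± 0.809 FPKM against 16.6 ± 2.63 with TCR. The median log2 fold change of the 18 with TCR was 0.53.

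Of 17 NF-κB pathway genes, all in the table, 10 were called higher with TCR and 0 lower (8.87% and 11.1% of all genes), with a median of 1.54. They were led by Rel (4.61, adjusted p = 1.55e-13) and Tnfaip3 (4.58, adjusted p = 3.19e-17), which encodes the inhibitor A20, followed by Nfkbia (2.88, adjusted p = 1.7e-14), Nfkb2 (2.84, adjusted p = 4.44e-15), Relb (2.76, adjusted p = 7.3e-13) and Nfkbie (2.20, adjusted p = 6.16e-11). With either inhibitor against TCR 0 of the 17 were called, where 1.88% of all genes were called with PI3Kdi and 3.49% with MEKi. At an unadjusted p under 0.05 limma picked 12 for PI3Kdi and 9 for MEKi, beside 37.7% and 46.4% of all genes. By adjusted p alone 10 were lower and 1 higher with PI3Kdi (12.8% and 12.7% of all genes), and 6 were lower and 1 higher with MEKi (18.2% and 18.9%). After rescaling to TPM these counts were 8 lower and 4 higher with PI3Kdi and 1 lower and 8 higher with MEKi, so the direction with MEKi depended on the scaling. That scale moved the median of all genes from 0.02 to 0.19 with PI3Kdi and from 0.01 to 0.26 with MEKi. The shares of all genes passing by adjusted p on that scale are not given here. Between the inhibitors 1 of the 17 was called, Bcl3 (1.05, adjusted p = 4.29e-05), where 3.09% of all genes were called.

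The genes most alike to each receptor over the 12 samples were found by Pearson correlation of log2(FPKM + 0.1) among 7482 genes with a mean of at least 5 FPKM. The values are descriptions, since the 12 samples fall into 4 groups that share libraries between genes. Tnfrsf4 was most like Tmbim1 (0.998) and Nkain1 (0.995). Tnfrsf9 and Cd27 had the same nearest gene, Tnfaip3 (0.997 for each), followed by Nrp1 (0.997) for Tnfrsf9 and Ifng (0.996) for Cd27. A value over all 12 samples includes the step from unstimulated to stimulated samples, so a high one does not mean alike inhibitor responses. For example, mean Ifng was 29596.82 FPKM with TCR, 20159.46 with PI3Kdi and 16617.05 with MEKi, where mean Cd27 was 114, 114 and 96.0. Tnfrsf18 was most like Plod3 (0.988) and another receptor of the superfamily, Tnfrsf10b (0.987), and Tnfrsf1b most like Gzme (0.989) and Cd320 (0.98). Fas was most like Cd2 (0.972) and Sdccag3 (0.97). Tnfrsf1a had the lowest values of the 7, with Rltpr (0.923) and Lamtor3 (0.887).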

How the data were processed

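Per the study's methods and the submitters' processing notes, the authors aligned paired-end reads from a TruSeq Stranded mRNA kit with STAR 2.4.2a to mm10, counted them per gene with Subread 1.5.0, removed genes with low counts and scaled libraries by TMM in edgeR. The deposited FPKM values were computed by the authors from those scaled counts and exon lengths, without pooling replicates. Strand use in counting is not given in the sources used here.

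All tests used log2(FPKM + 0.1) of all 11022 genes in 12 samples with limma 3.58.1 in R 4.3.3 (1 mean per group, empirical Bayes with an intensity trend, two-sided), and p-values were adjusted by Benjamini-Hochberg over all 11022 genes in each comparison. Fold changes are on that scale and understate the change of genes at low FPKM. A gene was called at an adjusted p under 0.05 and more than 2-fold. Per the study's methods the P14 CTL were raised from the lymphoid tissue of 3 mice as 3 biological replicates. The labels number replicates 1 to 3 in each group, and neither source says that a shared number marks a shared mouse. Deviations from group means correlated over 0.1 for every same-numbered pair of TCR with PI3Kdi (0.239 to 0.451), TCR with MEKi (0.122 to 0.182), PI3Kdi with MEKi (0.137 to 0.149) and unstimulated with MEKi (0.117 to 0.147), but not of unstimulated with TCR (from 0.0037) or with PI3Kdi (from -0.0615). A shared origin would hold for all groups at once, so these values do not sort the comparisons into paired and unpaired ones. The main fit was unpaired, and the fit with replicate number as a block is given as an alternative.

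All measured ligands were named, and from the lists of other receptors, adaptors and NF-κB genes up to 6 called genes per comparison. The 2 genes most alike to each receptor were taken by correlation. Receptors and lists were chosen with earlier results of these data known. As alternatives, 1 or 0.01 was added in place of 0.1, genes under a mean FPKM of 1 were dropped, samples were put on the TPM scale or quantile normalised, replicate number was added as a block, the 2 compared groups were fitted by themselves, the trend was omitted, and each replicate was left out. Depth, as a TMM-scaled library size, was estimated from steps of low FPKM values. Of these values 64.2% to 78.9% came within 0.15 of a whole read, so whole reads were not recovered. Evenly spread values would give 30% at a depth fixed beforehand. The depth was chosen to bring these same values near whole reads, so the 30% is not a fair baseline for them. The floor of 3 reads covers counting error only. Promoter windows came from the RefSeq table (GRCm38.p6), and positions from GENCODE M21. The scripts were tested on simulated data. Tables and figures were made with pandas and matplotlib.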

Additional observations from a re-analysis of the deposited data

Results flagged for a closer look

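The effects of the inhibitors, both taken against the same TCR samples, differed for several genes by the direct limma comparison of the MEKi with the PI3Kdi group. Among the 7 receptors the difference on the log2 scale was -0.55 for Fas, 0.53 for Tnfrsf18, -0.26 for Cd27 and -0.20 for Tnfrsf9, each with an adjusted p under 0.05 and within 2-fold. With the replicate number as a block Tnfrsf1a (-0.29, adjusted p = 0.0103) and Tnfrsf1b (-0.21, adjusted p = 0.00816) passed as well. Among the other receptors and the ligands, the difference was called for Cd70 (1.79), Tnfrsf25 (1.78), Tnfrsf26 (-1.27) and Tnfrsf11b (1.13). For Tnfrsf25 the PI3Kdi samples held 4 to 6 approximate reads. Tnfrsf11b, which encodes osteoprotegerin, lay at 4.03 ± 0.465 FPKM with PI3Kdi and 8.91 ± 0.865 with MEKi.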

How the results depend on the processing

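On the TPM scale 3 of the 7 receptors were called higher with TCR instead of 5, with Tnfrsf9 and Fas under 2-fold. Of all 11022 genes, 647 were called higher there instead of 978. Leaving out 1 replicate at a time gave 0 to 1 receptors called with PI3Kdi against TCR and 0 to 1 with MEKi against TCR, Tnfrsf4 being the 1. The replicate block left the numbers called at 5 for TCR against unstimulated and 0 for each inhibitor against TCR and for the inhibitors against each other. It moved an adjusted p across 0.05 only as given for Tnfrsf18, Tnfrsf1a and Tnfrsf1b. Signs turned on the TPM scale for Tnfrsf1a with TCR (-0.25), Tnfrsf1a (0.00) and Fas (0.10) with PI3Kdi against TCR, and Tnfrsf9 (0.09), Cd27 (0.01) and Tnfrsf1b (0.17) with MEKi against TCR, and under quantile normalisation for Tnfrsf9 with MEKi (0.15). Leaving out replicates turned the sign of differences close to 0, for Cd27 (-0.02 to 0.02) and Fas (-0.23 to 0.02) with PI3Kdi against TCR, Tnfrsf4 between the inhibitors (-0.06 to 0.16) and Tnfrsf1a with PI3Kdi against unstimulated (-0.09 to 0.10). The called rise of Fas with PI3Kdi against unstimulated fell under 2-fold with a pseudocount of 1 (0.90), on the TPM scale (0.80) and without unstimulated replicate 2 (0.97), PI3Kdi replicate 1 (0.99) or PI3Kdi replicate 3 (0.98). The causes were not tested. Of 588 recomputed log2 differences of the receptors, 560 kept direction and call. For each inhibitor against TCR and between the inhibitors 0 of the 7 were called to begin with, so a kept call says little there. Among differences that kept their call, some crossed an adjusted p of 0.05, as given for the single receptors. A pseudocount of 1 lowered the genes called from 2202 to 1405 with TCR, 207 to 90 with PI3Kdi, 385 to 201 with MEKi, 341 to 150 between the inhibitors, 1608 to 979 with PI3Kdi against unstimulated and 1478 to 873 with MEKi against unstimulated. On the TPM scale higher genes made up 32.9% of those called with PI3Kdi (49.1% without rescaling) and 39.7% with MEKi (51.8%), both against unstimulated. Depth limits Fas and unstimulated Tnfrsf4 most, and 3 samples per group limit all values.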
